A study of Mus musculus with 6 samples.

Results

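The transcripts described here belong to 10 genes of the adipocyte lineage, measured in pre-osteoblasts held static or rotated. They are the transcription factor genes Cebpb, Cebpd, Cebpa, Pparg and Zfp423 and the lipid handling and fat cell genes Fabp4, Lpl, Cd36, Plin2 and Adipoq. Every probe set that the platform's probe table gives to 1 of these symbols was taken, dim ones included, which gave 18 of the 45101 probe sets on the array and 10 of the 18194 genes it names. The cells were 2T3, a mouse pre-osteoblast line derived from calvaria as 1 clone and immortalised by a viral large T antigen, at passage 8 to 10, profiled as total RNA on 1-colour arrays after 3 days. One group was static and the other was rotated in a Rotating Wall Vessel, a turning chamber filled with fluid that is used to model microgravity on the ground, with 3 samples and 1 array per sample in each. Both groups are the same untreated line, so the data describe 1 clone. The titles gave the groups. For static 2 and static 3 the source field instead gives simulated microgravity, and the letter R in the other titles was read as rotated from the design text. Separate cultures are not mentioned in the labels, so p-values measure only how far these samples scatter, and that scatter may be technical.

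Osteoblasts and adipocytes arise from a shared mesenchymal progenitor. In adipogenesis the bZIP factors C/EBP-beta and C/EBP-delta are induced first, and they switch on Pparg and Cebpa, whose products then maintain each other and activate the genes of the mature fat cell. Zfp423 marks and commits preadipocytes. Among the later genes, Lpl releases fatty acids from lipoproteins, Cd36 takes them up, Fabp4 carries them inside the cell, Plin2 coats lipid droplets and Adipoq encodes the hormone adiponectin. Several of these genes have other roles: C/EBP-beta and C/EBP-delta also act in inflammation and in osteoblasts, and Plin2 coats droplets in most cell types.

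Array medians of the deposited signal ran from 70.0 to 130.1, static 1 having the highest. The 3' over 5' signal ratio of the actin control rises when RNA or labelled product is shortened. It was 1.37, 1.29 and 1.34 in static 1, 2 and 3 and 3.21, 1.57 and 1.48 in rotated 1, 2 and 3. Every rotated array was above every static one. Fits with this ratio as covariate therefore cannot fully tell the ratio from rotation. The same ratio of the transferrin receptor control was also highest in rotated 1, 8.92 against 1.62 to 3.71. That of GAPDH did not set rotated 1 apart, at 0.875 against 0.748 to 0.867. A probe set was called dim when its mean over the 6 arrays, on the normalized log2(signal + 16.6) scale, lay below 5.96, the 40th percentile. Of the 18 probe sets 12 were above that threshold, and they belong to 7 genes. All probe sets of Zfp423, Cd36 and Adipoq were dim. Probe sets are numbered here within a gene from the brightest, and levels were not compared between probe sets, since each hybridises differently. In such bulk RNA, fewer cells expressing a gene and less RNA per cell cannot be told apart.

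The comparison asked whether any of these genes differed between static and rotated cells. No member passed the test: 0 of the 12 probe sets above the threshold had an adjusted p under 0.05 in limma (0.603 to 0.929, Benjamini-Hochberg over all 27022 probe sets tested), and so did 0% of all probe sets. At an unadjusted p under 0.05 there was 1 of 12, the brightest Fabp4 probe set, lower in the rotated samples, where the share over all probe sets was 8.25% (1173 higher and 1055 lower, or 915 and 440 with median centring). Differences are log2 rotated minus static throughout, on the scale with the offset, which understates changes of low signals. They were below 0 for 9 of the 12 and above 0 for 3, with a median of -0.24. Probe sets of the same gene are not independent, and Fabp4 holds 3 of the 12. By gene, with the brightest probe set of each, 5 of 7 were below 0 and 2 above, with a median of -0.26. Over all probe sets tested, 47.4% were below 0 and the median was 0.03. The groups did not overlap for 3 of the 12, all Fabp4, against 15.1% of all probe sets; the second Fabp4 probe set is among them by a margin near 0 after normalization and overlaps as deposited. The replicate numbers were treated as pairs by the check described under the processing, though the labels do not state a pairing. Within same-numbered pairs the rotated sample was lower in all 3 pairs for 5 of the 12 and higher in all 3 for 1, against 20.1% and 21.9% of all probe sets. The 5 again include the second Fabp4 probe set, whose pair of number 1 was level. With the replicate number as a block, 3 of the 12 had an unadjusted p under 0.05, all lower in the rotated samples, against 14.6% of all probe sets, and 0 passed after adjustment (smallest adjusted p 0.284), against 0.0074% of all probe sets. With array weights, which count noisier arrays for less, 5 of the 12 had an unadjusted p under 0.05, all lower, against 19.1%, and 0 passed after adjustment, against 0.0814%. Leaving out static 2 and static 3, the samples whose labels disagree, leaves static 1 as the only static array, which is assumed to vary like the rotated ones. The differences were then -0.82 for the brightest Fabp4 probe set, -1.76 for the second Cebpb, -0.41 for the first Cebpd, 0.21 for Plin2 and 0.36 for Pparg.

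**Figure D1:**
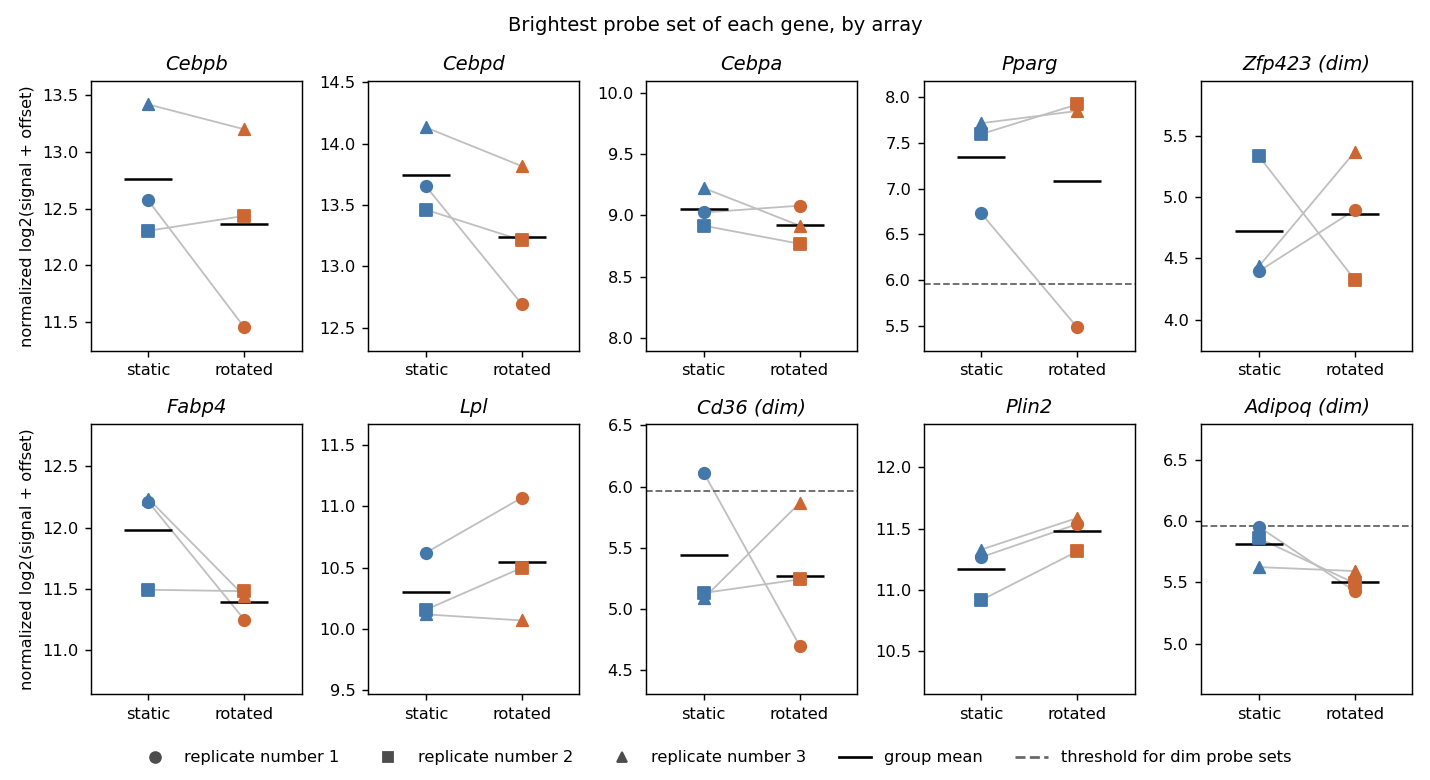
Normalized log2(signal + 16.6) of the brightest probe set of each of the 10 genes (vertical axes, each with its own range) in the 3 static and 3 rotated arrays; grey lines join equal replicate numbers, black bars are group means and the dashed line is the threshold for dim probe sets, 5.96. The rotated symbols of Fabp4 lie below all static ones, those of Plin2 stand above the static symbol of the same number in all 3 pairs, and rotated 1 is the lowest value of Cebpb, Cebpd and Pparg.

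Cebpb, an early factor of the adipogenic cascade, had the widest spread of the members and the largest difference, in its second probe set. The deposited signals of the first probe set were 5534.6, 5182.4 and 10318.0 in static 1, 2 and 3 and 2826.0, 5590.8 and 9052.9 in rotated 1, 2 and 3. Both samples numbered 3 were high and rotated 1 was the lowest, so the groups overlapped. The difference was -0.40 ± 0.42 (SE, n = 3 per group; limma adjusted p 0.775). The second probe set read 2695.5, 1530.1 and 4115.5 in the static samples and 202.9, 859.5 and 2891.2 in the rotated ones. It was lower in the rotated sample of every pair, with log2 differences of -3.58, -0.82 and -0.55 for numbers 1, 2 and 3, although the groups overlapped. Its mean difference was -1.65 ± 0.75 (unadjusted p 0.0548, limma adjusted p 0.607), and with the replicate block the unadjusted p was 0.0200 (adjusted p 0.284). Rotated 1 carried much of it: without that array the difference was -0.74 ± 0.55, and a fit with the actin ratio as covariate gave -0.26 ± 0.61. For the first probe set the sign turned, to 0.05 without rotated 1 and 0.29 with the covariate.

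The 2 Cebpb probe sets did not keep 1 ratio between arrays. The signal of the first over that of the second was 2.05, 3.39 and 2.51 in the static samples and 13.9, 6.50 and 3.13 in rotated 1, 2 and 3. The array with the widest gap was the array with the actin ratio of 3.21. Lpl showed the same array apart, with 12.3 in rotated 1 and 3.32 to 5.51 elsewhere. For Cebpd the ratio was lowest there, 23.0 against 44.8 to 72.2. In Fabp4 the ratio was 1.34 there and 1.53 to 2.46 elsewhere. Where each probe set lies on its transcript was not analysed here, and the part of RNA length in these differences was not tested beyond the covariate.

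**Figure D2:**
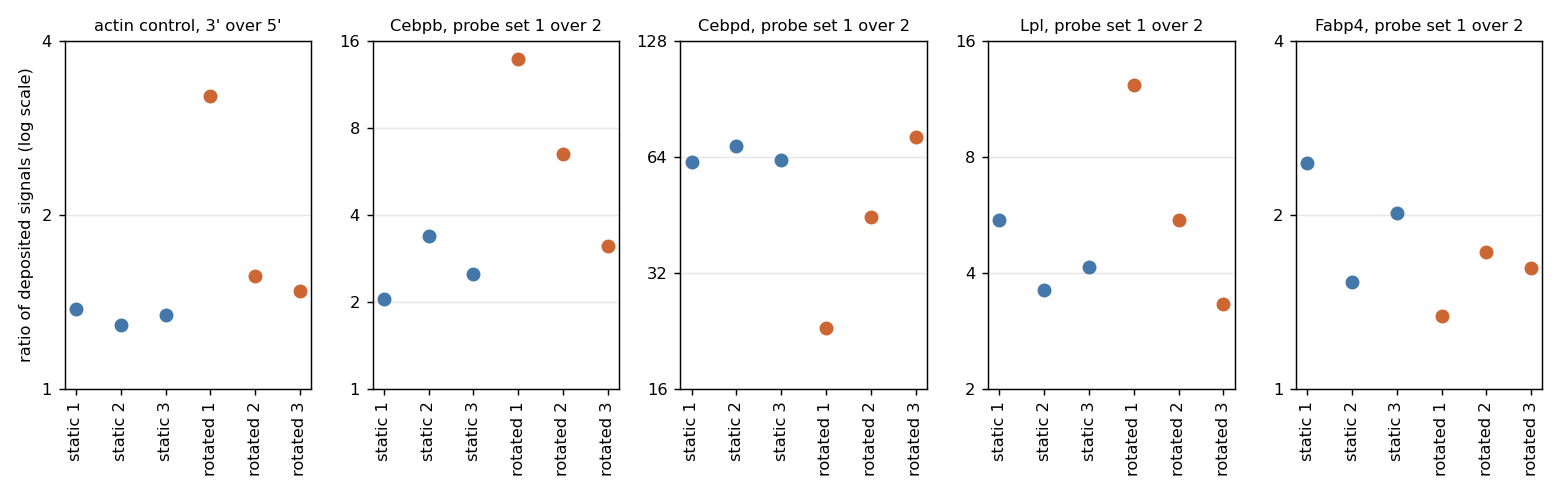
Ratios of deposited signals on a log scale (vertical axes) for each of the 6 arrays (horizontal axis, static in blue, rotated in orange): the actin control, 3' over 5', at left, then the brightest over the second probe set of Cebpb, Cebpd, Lpl and Fabp4. Rotated 1 is the highest array for actin (3.21), Cebpb (13.9) and Lpl (12.3) and the lowest for Cebpd (23.0) and Fabp4 (1.34).

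Cebpd, which is induced beside Cebpb at the onset of adipogenesis, gave strong signals. Its first probe set gave signals of 11543.0, 11650.6 and 16318.2 in static 1, 2 and 3 and 7340.3, 9903.6 and 13632.3 in rotated 1, 2 and 3. Each rotated sample was below the static sample of its number, with log2 differences of -0.96, -0.25 and -0.32, while rotated 3 exceeded static 1 and static 2. The mean difference was -0.51 ± 0.28 (SE, n = 3 per group; unadjusted p 0.106, limma adjusted p 0.631), and with the replicate block the unadjusted p was 0.0194 (adjusted p 0.284). It was -0.23 ± 0.25 without rotated 1 and -0.09 ± 0.28 with the actin covariate. The second probe set had a difference of opposite sign, with signals of 185.8, 170.7 and 260.0 in the static and 319.6, 221.2 and 188.8 in the rotated samples. Its groups overlapped and its difference was 0.41 ± 0.34 (adjusted p 0.715). Averaged over both probe sets the gene stood at -0.05 ± 0.21.

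Cebpa, the factor that with PPAR-gamma maintains the fat cell state, differed little between arrays. Its only probe set read 511.7, 463.4 and 612.0 in static 1, 2 and 3 and 468.3, 416.2 and 490.3 in rotated 1, 2 and 3. The groups overlapped, with static 3 the highest and rotated 2 the lowest. The difference was -0.13 ± 0.23 (SE, n = 3 per group; limma adjusted p 0.872).

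Pparg, the nuclear receptor on which adipocyte formation depends, gave moderate signals of 135.7, 166.1 and 194.2 in the static samples. In the rotated samples they were 30.8, 218.9 and 210.9. Rotated 2 and rotated 3 were the highest of the 6 arrays and rotated 1 the lowest, there below the threshold for dim probe sets. The difference was -0.26 ± 0.63 (SE, n = 3 per group; limma adjusted p 0.910), and its sign rested on rotated 1: without that array it was 0.54 ± 0.37, and with both arrays of number 1 left out 0.23 ± 0.22. The actin covariate gave 0.97 ± 0.42 (unadjusted p 0.0521). Zfp423, the zinc finger factor of preadipocyte commitment, was dim on all 6 arrays, with signals of 14.3, 18.8 and 3.4 in the static and 13.1, 2.5 and 17.3 in the rotated samples. No order of the groups can be read at that level (0.14 ± 0.37).

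RefSeq promoter windows (GRCm38.p6) were at hand for 7 of the 10 genes; Cebpd, Fabp4 and Lpl are not among them. The 250 bases before the gene start are shown for Cebpb, whose second probe set had the largest difference, and its cascade target Cebpa. They are also shown for Plin2, the only member above the threshold that was higher in every pair. They lie at chr2:167688665-167688914 on the plus strand for Cebpb, chr7:35119043-35119292 on the plus strand for Cebpa and chr4:86670060-86670309 on the minus strand for Plin2. Each is written 5' to 3' along its gene, with motif matches on either strand in capitals.
Cebpb: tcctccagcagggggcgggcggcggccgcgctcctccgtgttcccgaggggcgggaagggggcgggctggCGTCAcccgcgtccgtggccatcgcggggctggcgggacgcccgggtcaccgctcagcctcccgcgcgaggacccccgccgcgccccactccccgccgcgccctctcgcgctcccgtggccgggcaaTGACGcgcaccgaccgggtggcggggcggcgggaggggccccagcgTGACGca
Cebpa: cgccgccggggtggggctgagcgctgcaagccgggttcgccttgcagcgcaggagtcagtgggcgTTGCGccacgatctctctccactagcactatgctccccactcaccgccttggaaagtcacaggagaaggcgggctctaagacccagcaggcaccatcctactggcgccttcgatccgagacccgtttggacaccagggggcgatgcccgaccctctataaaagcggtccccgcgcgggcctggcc
Plin2: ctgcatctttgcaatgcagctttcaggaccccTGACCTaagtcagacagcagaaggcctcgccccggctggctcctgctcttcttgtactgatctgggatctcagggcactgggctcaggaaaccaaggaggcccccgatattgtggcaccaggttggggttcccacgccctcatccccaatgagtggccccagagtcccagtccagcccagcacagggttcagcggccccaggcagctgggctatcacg
The capitals in Cebpb mark TGACG, the core of the cAMP response element bound by CREB, which occurred 3 times, the nearest to the start within its last 7 bases; 17.8% of all 32851 windows of 250 bases hold it. In Cebpa they mark TTGCG, the core of the C/EBP site, found 181 to 185 bases before the start and in 14.5% of windows. In Plin2 they mark AGGTCA, the repeat unit of the PPAR response element, here on the opposite strand and in 14.0% of windows. The full element, AGGTCA repeated after 1 base of any kind and so overlapping the unit, was in 0 of the 10 windows of the 7 genes and in 0.0335% of all. A match describes letters only; binding was not measured.

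Fabp4, the fatty acid binding protein aP2, had 4 probe sets, 3 of them above the threshold, and all were lower in value in the rotated samples. The brightest gave signals of 4340.4, 2931.1 and 4697.7 in static 1, 2 and 3 and 2439.0, 2876.5 and 2801.1 in rotated 1, 2 and 3. The groups did not overlap, but static 2 stood close to rotated 2, and the gap came from static 1 and static 3. The difference was -0.59 ± 0.23 (SE, n = 3 per group), or 1.50-fold lower, with an unadjusted p of 0.0320 and a limma adjusted p of 0.603. It ranged from -0.83 without static 2 to -0.46 without static 3, and was -0.51 ± 0.29 with the actin covariate. With median centring it was -0.40 ± 0.35. Of the 6 fits that left out 1 array, the unadjusted p stayed under 0.05 in the one without static 2.

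The second Fabp4 probe set read 1764.5, 1917.6 and 2333.0 in the static samples. It read 1821.2, 1669.9 and 1731.8 in the rotated ones, for a difference of -0.22 ± 0.19 (SE, n = 3 per group; limma adjusted p 0.728). On the deposited scale rotated 1 exceeded static 1, and after normalization the pair was level. The third, near the threshold, read 146.6, 67.4 and 93.3 against 42.9, 44.4 and 59.1 in the rotated samples, whose highest value lay below the lowest static one (-0.70 ± 0.37, adjusted p 0.620). The dim remaining one stood at -0.80 ± 0.50, with overlapping groups.

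Lpl, lipoprotein lipase, showed no common direction in its 2 probe sets. The first read 1513.6, 1134.9 and 1130.4 in static 1, 2 and 3 and 2144.2, 1433.6 and 1101.5 in rotated 1, 2 and 3. Rotated 1 was the highest and rotated 3 the lowest array, so the rotated samples enclosed the static ones (0.25 ± 0.29, SE, n = 3 per group; limma adjusted p 0.796). Without rotated 1 the difference was -0.02 ± 0.25. The second probe set read 274.9, 314.7 and 272.8 against 173.7, 260.5 and 332.0, with rotated 1 now the lowest (-0.10 ± 0.29, adjusted p 0.929).

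Cd36, the fatty acid translocase, was dim in all 3 of its probe sets. Signals ranged from 0.9 to 86.0 in the static and 1.8 to 43.3 in the rotated samples over these probe sets. In the fit without the filter their differences were -0.17 ± 0.45, 0.03 ± 0.47 and 0.80 ± 0.29 from the brightest to the dimmest. The last had an unadjusted p of 0.0197 (adjusted p 0.693), where 7.04% of all 45037 probe sets in that fit had one under 0.05. It rests on very low signals, 8.9, 1.0 and 0.9 in the static and 32.9, 13.0 and 4.1 in the rotated samples, which overlap as deposited, and the differences of the brighter probe sets were smaller than their SE.

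Plin2, the lipid droplet protein perilipin 2 or adipophilin, was the only member above the threshold that was higher in the rotated sample of every pair. Of all probe sets above the threshold 21.9% were. Its signals were 2323.4, 1916.4 and 2567.3 in static 1, 2 and 3 and 3007.9, 2569.2 and 3073.7 in rotated 1, 2 and 3. The deposited values of the groups just missed each other, at 2567.3 and 2569.2, and after normalization rotated 2 was slightly below static 3. The pairwise differences were 0.27, 0.40 and 0.26 on the log2 scale. Their mean was 0.31 ± 0.20 (SE, n = 3 per group), or 1.24-fold higher, with a limma adjusted p of 0.657, and 0.26 ± 0.24 with the actin covariate. Adipoq, the adiponectin gene that marks mature fat cells, was dim on every array. It read 74.3, 33.4 and 29.1 against 28.7, 27.1 and 22.9, with the rotated samples all lowest and the static samples led by static 1 alone. After normalization static 1 and static 2 were close, at 5.95 and 5.86. The difference was -0.31 ± 0.38 without the filter (limma adjusted p 0.863), and -0.24 ± 0.36 when static 1 was left out.

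**Figure D3:**
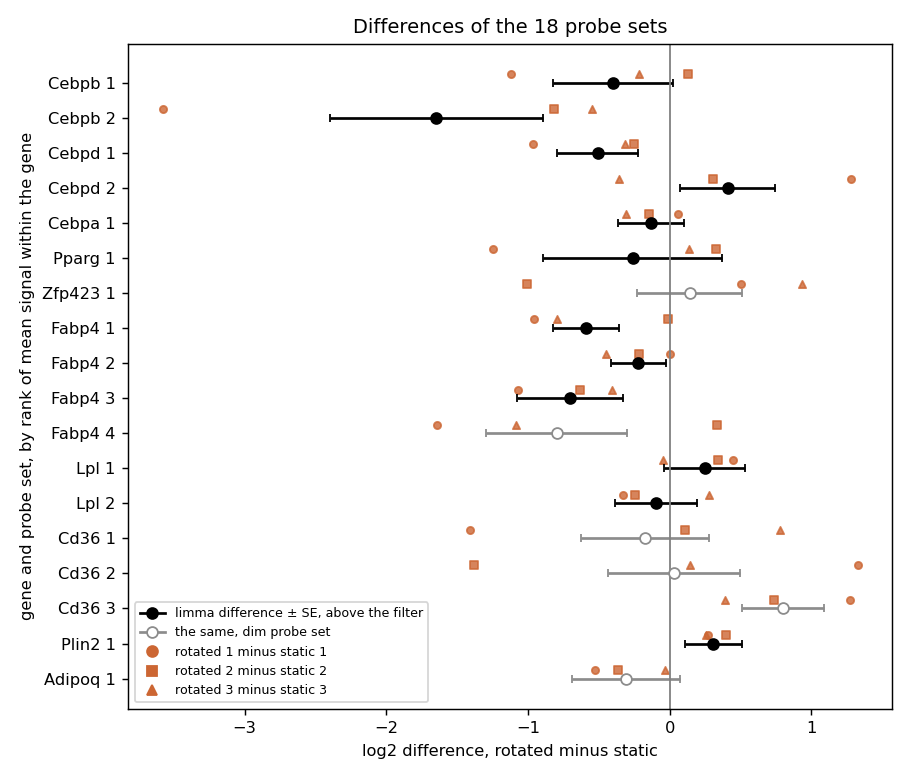
Log2 difference, rotated minus static (horizontal axis), of the 18 probe sets, grouped by gene and numbered from the brightest; circles with bars are limma differences ± SE, open grey circles are dim probe sets, and small orange symbols above each are the differences of the 3 same-numbered pairs. The 4 Fabp4 probe sets lie left of 0 and Plin2 right of 0 with its 3 pairs close together, while the pairs of Cebpb 2 spread from -3.58 to -0.55.

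The other genes of adipogenesis were taken as 8 lists holding 133 genes, of which 121 had a probe set named here and 98 were above the threshold, 1 probe set each. In limma 0 of the 98 passed after adjustment, and so did 0% of all 12554 genes tested. At an unadjusted p under 0.05 there were 5 genes higher with rotation and 5 lower, where the shares over all genes were 4.49% and 3.74%. The groups did not overlap for 8 higher and 9 lower genes of the 98, against 15.1% of all probe sets tested. Genes named below had the smallest p of their lists, a choice that favours groups without overlap. The median of the 98 was -0.01, against 0.03 for all genes.

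Of the C/EBP relatives, Ddit3 (CHOP), a stress factor that blocks C/EBP dimers, stood at -0.56 ± 0.53 and Cebpg at 0.02 ± 0.40, with both pairs of groups overlapping. The receptors and partners of PPAR-gamma were within their standard errors of 0: Rxra, its dimer partner, stood at -0.21 ± 0.23, Rxrb at -0.10 ± 0.28 and Ppard at 0.08 ± 0.46 (SE, n = 3 per group; limma adjusted p 0.783 to 0.967). Ppara and Rxrg were dim.

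PPAR coregulators were higher in value for 7 of 9 genes, with a median of 0.51, against 0.03 for all genes. At an unadjusted p under 0.05 there were 2 higher and 1 lower, where the shares over all genes were 4.49% and 3.74%. The lower one was Nrip1 (RIP140), a corepressor that restrains oxidative genes in fat cells. It read 5704.8, 3583.2 and 3813.7 in static 1, 2 and 3 and 955.9, 2268.5 and 2000.4 in rotated 1, 2 and 3. The groups did not overlap and the difference was -1.39 ± 0.33 (SE, n = 3 per group), or 2.63-fold lower, with an unadjusted p of 0.00205 and a limma adjusted p of 0.564. It was -1.05 ± 0.27 without rotated 1 and -0.90 ± 0.32 with the actin covariate. Its 5 other probe sets above the threshold were lower as well. The acetyltransferase gene Ep300 stood at 0.51 ± 0.20, the mitochondrial coactivator gene Ppargc1b at 1.14 ± 0.49 and the deacetylase gene Sirt1 at 0.54 ± 0.25. The groups of Ep300 did not overlap, while those of Ppargc1b and Sirt1 did. Ppargc1b had low signals, 121.4, 75.1 and 141.6 in the static and 378.9, 99.4 and 315.1 in the rotated samples (limma adjusted p 0.606). The list's median was 0.21 without rotated 1, 0.22 with the actin covariate, 0.19 without static 2 and static 3, and 0.19 when the probe sets of a gene were averaged.

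Other factors that favour adipogenesis were split, 8 higher and 9 lower in value, with a median of -0.14 that was -0.011 without rotated 1, 0.057 with the actin covariate and 0.062 with median centring. Klf9, which acts on the Pparg promoter, stood at 0.79 ± 0.33 (SE, n = 3 per group; limma adjusted p 0.603), and its 6 other probe sets were above 0 too. Ebf3 (-0.53 ± 0.25), Klf6 (-0.49 ± 0.23) and the lipid enzyme gene Lpin1 (0.50 ± 0.24) followed by p. Among 15 factors that oppose adipogenesis, 7 were higher and 8 lower, with a median of -0.12 that was 0.028 on the deposited scale and 0.16 with median centring. Zfp521, a zinc finger factor that antagonises Zfp423 and Ebf1, read 1748.5, 2532.3 and 2032.5 in the static and 1000.8, 1373.5 and 1307.9 in the rotated samples. All rotated values were below all static ones (-0.76 ± 0.22, adjusted p 0.592). Id2, an inhibitor of basic helix-loop-helix factors, stood at -0.88 ± 0.40, Twist1 at -0.39 ± 0.21 and Sox9 at 0.62 ± 0.31, Sox9 with its other probe set in the opposite direction.

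Of 25 mature adipocyte and lipid droplet genes, 11 were higher and 14 lower, with a median of -0.02. Bscl2 (seipin), which shapes lipid droplets, read 1564.2, 1593.1 and 1402.9 in the static and 3505.8, 2195.4 and 2294.1 in the rotated samples. Its groups did not overlap (0.74 ± 0.23, SE, n = 3 per group; limma adjusted p 0.592), but its other probe set stood at -0.27 ± 0.38. Slc2a4, the insulin-responsive glucose transporter GLUT4, stood at -1.22 ± 0.47, the droplet protein gene Plin4 at 1.25 ± 0.61 and hormone-sensitive lipase, Lipe, at -0.80 ± 0.50, all at low signals. The fat cell genes Cidec, Lep and Retn were dim, as were Cidea and Ucp1.

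The fatty acid handling genes, many of them PPAR targets, were even, with 10 higher and 10 lower of 20 and a median of 0.01. Acsl5, which activates fatty acids to acyl-CoA, read 2100.9, 2644.5 and 2444.7 in the static and 3933.3, 3714.0 and 3145.9 in the rotated samples, without overlap (0.55 ± 0.18, SE, n = 3 per group; limma adjusted p 0.592). The beta-oxidation genes Acadm (-0.47 ± 0.23) and Hadha (-0.44 ± 0.23) and the binding protein gene Fabp5 (-0.28 ± 0.15) followed. For Fabp5 the deposited signal was highest in rotated 1, at 14808.8, so its groups were apart only after normalization. Of 7 preadipocyte and stromal markers 5 were lower and 2 higher, with a median of -0.24. That median was 0.16 without rotated 1, 0.068 without static 3 and 0.43 with the actin covariate. The smallest p belonged to the proteoglycan gene Dcn (-0.44 ± 0.12) and the receptor gene Pdgfra (-0.76 ± 0.22), each with 1 other probe set in the opposite direction. As deposited, Dcn read 35396.8, 31331.8 and 29354.5 in static 1, 2 and 3 and 37457.2, 26145.0 and 23276.0 in rotated 1, 2 and 3. Rotated 1 was thus the highest array, and the Dcn groups were apart only after normalization. The markers higher in value were Bmper (0.57 ± 0.37), which encodes a binder of bone morphogenetic proteins, and the surface marker gene Cd34 (0.34 ± 0.28), both with overlapping groups.

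**Figure D4:**
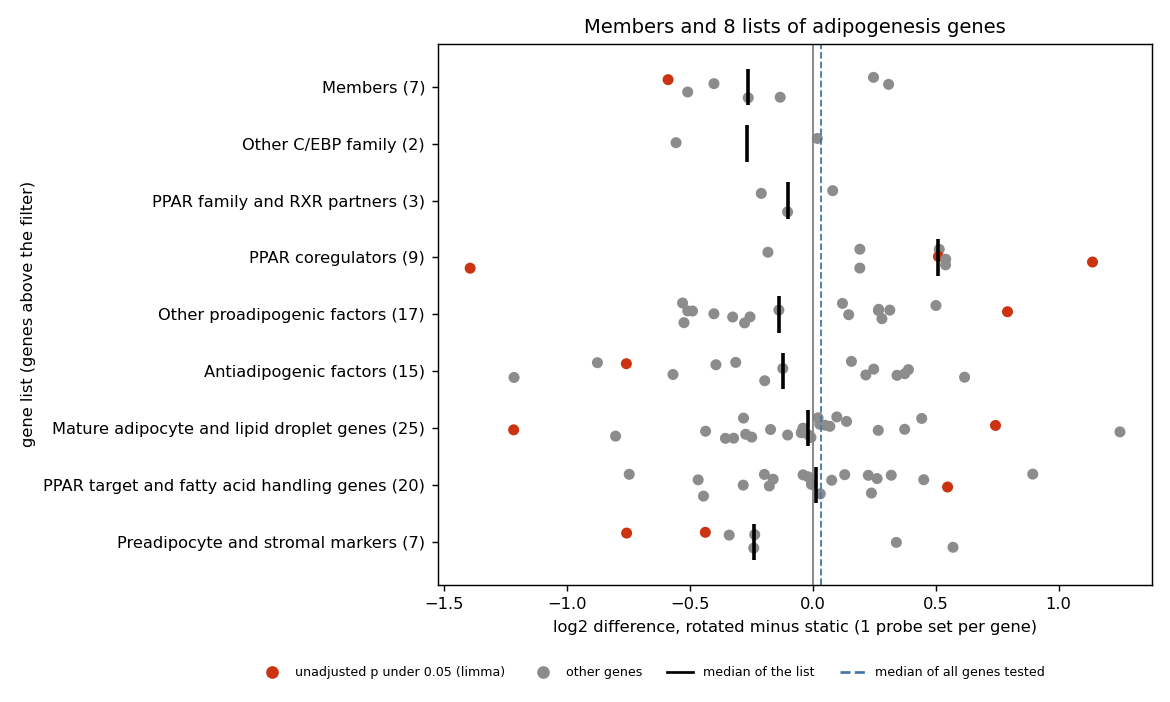
Log2 difference, rotated minus static (horizontal axis), of the members and of 8 lists of adipogenesis genes, 1 probe set per gene above the threshold (number in brackets); red points had an unadjusted p under 0.05 in limma, black bars are list medians and the dashed line is the median of all genes tested, 0.03. Fabp4 is the red point of the members, and the coregulators have the median farthest from 0, at 0.51.

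Marker genes gave the setting of these levels. Of 5 markers of mature white adipocytes with a probe set named here 4 were dim, Lipe alone being above the threshold. The deposited signals of the 5 summed to 625, 213 and 162 in static 1, 2 and 3 and 87.0, 155 and 144 in rotated 1, 2 and 3. Static 1 also had the highest 10th percentile of all signals, 22.1 against 4.5 to 7.2 on the other arrays. Of 12 osteoblast lineage markers listed, Runx2, Bglap and Spp1 had no probe set named here. The other 9 summed to 36146 to 40310 in the static and 26015 to 34051 in the rotated samples, 8 of 9 above the threshold. Of those 8, 7 were lower in value, 4 were lower at an unadjusted p under 0.05 (Dlx5, Sp7, Col1a1 and Col1a2), where the share over all genes was 3.74%, and 0 passed in limma after adjustment. Rotated 1 had the lowest sum, and the 4 became 1 without that array and 0 with the actin covariate, with 6 of the 8 lower in value in both. The 4 also became 1 without static 1 and 1 with median centring, with 8 and 7 of the 8 lower in value. Without any other single array the count was 2 or 3, and with the replicate block or array weights it stayed 4. Over all 27022 probe sets tested, those lower at that level also fell. They went from 1055 to 588 without rotated 1, 381 with the covariate, 942 without static 1 and 440 with median centring. Other cells that can express Fabp4, Cd36 and Lpl were looked for by their markers. Endothelial markers were dim for 6 of 7, Pecam1 and Cdh5 among them, with sums of 190 to 404 and 164 to 250, the 404 again in static 1. Macrophage markers summed to 3158 to 4883 and 3506 to 4896, most of it Cd14, with 6 of 9 above the threshold (Adgre1, Csf1r, Cd68, Lyz2, Fcer1g and Cd14) and Ptprc, Tyrobp and Itgam dim. Skeletal muscle markers summed to 245 to 417 and 244 to 293, with 3 of 6 above the threshold (Des, Acta1 and Ckm) and Myod1, Myog and Tnnt3 dim. The part of these marker levels in the members' differences was not tested.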

How the data were processed

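Values were the authors' deposited intensities, linear, with 1 value for each probe set of an array. Their mean after trimming 2% at each end was 500.0 on all 6 arrays, so the authors had scaled each array; how probes were summarised is "not given in the sources used here", and no detection calls were used. The log2 of each value plus 16.6 (the 20th percentile of all signals) was quantile normalized, since array medians differed by 85.9% (tolerance 10%). The 64 control probe sets and those whose mean lay below the 40th percentile were left out, leaving 27022. Symbols came from the platform's probe table with gene identifiers of a RefSeq table (GRCm38.p6): 34945 of 45037 probe sets had 1 symbol, 932 several and 9160 none here. A gene was represented by its brightest probe set (12554 genes). Dim members were fitted without the filter.

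The groups were tested two-sided by limma (version 3.58.1, R 4.3.3), using lmFit and eBayes with an intensity trend and Benjamini-Hochberg adjustment at 0.05; the code was tested on simulated data. Named were all members and up to 4 genes with the smallest p per list. The members and lists were chosen with earlier results of these data known. Deviations from group means correlated at 0.196, 0.313 and 0.334 for same-numbered samples and at -0.19 to -0.09 for others. Such deviations cancel within a group, so positive values for same-numbered samples bring negative ones among the others. By the threshold of 0.1 used here the numbers were treated as pairs in the pairwise counts and the block. The labels do not say what the numbers stand for. The main fit has no block. The number of arrays limits the precision. Alternatives were the deposited scale, median centring, other offsets and filters, other variance models, array weights, the replicate block, averaged probe sets, the actin covariate and samples left out.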

Additional observations from a re-analysis of the deposited data

How the results depend on the processing

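Over 20 settings no member and no gene of the adipogenesis lists had an adjusted p under 0.05 in limma, also with any 1 array left out (range 0 to 0). Of 335 member differences recomputed, 300 kept their sign and 35 turned, in 8 of the 18 probe sets. Some of the 300 could not turn, since other filters, other variance models and the replicate block leave a difference unchanged. Adipoq, Cebpa, the second Cebpb, first Cebpd, dimmest Cd36, Plin2 and all 4 Fabp4 probe sets kept their sign in every setting. The count of member probe sets at an unadjusted p under 0.05, 1 in the main setting, was 3 with the replicate block, 3 without the filter, 5 with array weights, 0 with median centring, 0 with the actin covariate, 0 without both arrays of number 1, and 0 to 2 with 1 array left out (0 without static 1, static 3, rotated 1 or rotated 2, and 2 without static 2 or rotated 3). For the genes of the lists it was 10 in the main setting, 25 with the replicate block, 19 with array weights, 5 with median centring, 6 without static 2 and static 3 (1 static array left, assumed to vary like the rotated ones), and 8 to 14 with 1 array left out. The replicate block, with same-numbered samples as pairs, changed no adjusted call of these genes. The count over all 27022 probe sets moved too, so a changed count alone does not set these genes apart. In limma 2228 (8.25%) had an unadjusted p under 0.05 in the main setting. There were 3957 (14.6%) with the replicate block, 5148 (19.1%) with array weights and 1355 with median centring. There were 702 with the actin covariate, 1619 without both arrays of number 1 and 1091 to 3362 with 1 array left out. Without the filter it was 3171 of 45037 (7.04%). List medians had the other sign in 24 of 160 refits, some of which repeat the main median by design, such as those with the block. The coregulators' median turned in 0 but ranged from 0.19 to 0.61. The cause of these shifts was not tested. Signal near background limits Zfp423, Cd36 and Adipoq.

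Differences that turned sign were as follows. With array weights they were 0.12 and -0.39 for the first and second Cd36 probe sets, 0.025 for Pparg, -0.30 for Cebpg and -0.062 for Ppard. With the actin covariate they were 0.25 and -0.42 for these Cd36 probe sets, 0.29 for the first Cebpb, -0.18 and 0.22 for the first and second Lpl, 0.97 for Pparg, -0.032 for Cebpg and 0.053 for Lipe. Without both arrays of number 1 they were 0.44 and -0.62 for Cd36, -0.025 for the second Cebpd, 0.017 for the second Lpl, 0.23 for Pparg, -0.038 for Zfp423 and 0.034 for Rxrb. Without static 2 and static 3 they were -0.076 and 0.070 for Lpl, 0.36 for Pparg and -0.60 for Cebpg. On the deposited scale they were -0.15 for the second Cd36, -0.062 for Zfp423 and -0.022 for Ppard. The second Cd36 also stood at -0.011 with median centring and -0.042 with the smaller offset, and Rxrb at 0.0076 with median centring. Averaging a gene's probe sets gave -0.024 for Cebpg and -0.19 for Sox9. With 1 array left out the ranges were -0.47 to 0.16 and -0.31 to 0.45 for Cd36, -0.82 to 0.053 for the first Cebpb, -0.015 to 0.49 and -0.27 to 0.10 for Lpl, -0.68 to 0.54 for Pparg, -0.11 to 0.45 for Zfp423, -0.46 to 0.33 for Cebpg, -0.32 to 0.089 for Rxrb and -0.36 to 0.57 for Ppard.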
